A study of Mus musculus with 21 samples.

Results

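The genes described here are 40 genes of DNA replication and mitosis, which dividing cells need to copy their chromosomes and to part them. They were chosen by name: a gene is represented by the array probe whose RefSeq accession maps to its symbol, and where several probes did, by the probe with the highest mean level over all arrays. All 40 genes had a probe, of 20018 genes with a named probe in all. Of these 40, 18 are replication genes (Mcm2, Mcm3, Mcm4, Mcm5, Mcm6, Mcm7, Pcna, Tyms, Rrm1, Rrm2, Ccne1, Ccne2, Cdc6, Cdt1, Gins2, Cdc45, Tk1 and E2f1) and 22 are mitotic genes (Mki67, Top2a, Ccnb1, Ccnb2, Cdk1, Bub1, Bub1b, Aurka, Aurkb, Plk1, Cdc20, Birc5, Ccna2, Kif11, Kif20a, Kif23, Cenpa, Cenpe, Nusap1, Tpx2, Prc1 and Ube2c).

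The study profiled mouse blood progenitors and B cells in which the related transcription repressors Bach1 and Bach2 were removed or Bach2 was added, with 21 single-colour Agilent arrays in 7 groups of 3. CLPs (common lymphoid progenitors, from which lymphocytes descend) were sorted without culture from wild-type mice (WT CLPs) and from mice deficient in both Bach1 and Bach2 (DD CLPs), with cells pooled from several mice. Multipotent progenitors (MPPs) of wild-type mice, pooled from 4 mice per experiment, were kept overnight in SCF (50 ng/ml), IL-3 (5 ng/ml) and IL-6 (10 ng/ml), infected with an MSCV retroviral vector carrying GFP alone (control-vector MPPs) or Bach2 and GFP (Bach2-vector MPPs), and sorted for GFP after 2 days of multilineage culture. A further group carrying the Bach2 vector had 24 h of that culture and 6 days in B-lineage conditions and was sorted for GFP and the B-lineage surface marker B220 (B220+ Bach2-vector cells); no control-vector cells went through this culture. Follicular B cells, the resting mature B cells of lymphoid follicles, came from wild-type and Bach2-knockout (Bach2KO) mice and all received an anti-IgM antibody fragment at 10 ug/ml for 24 h, which engages the B-cell receptor, so that no unstimulated B cell was measured. The labels do not say whether the follicular B-cell replicates came from separate mice, and the p-values then measure only the spread between these samples, which may be technical. The labels' protocol for these arrays speaks of 1 RNA sample, WT or Bach2KO, that went through linear amplification, and leaves unsaid whether the 3 arrays of a group had separate RNA.

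Cells about to divide first license their replication origins and then copy their DNA in S phase, and many of the genes for this are switched on by E2F transcription factors at the end of G1. The genes for chromosome condensation, the spindle and cytokinesis are switched on later, in G2 and M, through promoter elements called the cell cycle homology region (CHR) and through CCAAT boxes. A resting B cell has to enter the cycle after its receptor is engaged, whereas progenitors in cytokines are already dividing.

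On the arrays, the value of a gene is the log2 of its processed spot signal minus the log2 of the array's 75th percentile signal, so 0 is that percentile and a difference of 1 is a doubling. This percentile was 2858 to 5127 units in CLPs, 2071 to 3377 in MPPs and only 97.3 to 357.5 in follicular B cells, with the lowest value on the array of Bach2KO replicate 2. Bach2 itself lay at 1.49 to 3.46 in WT CLPs and -0.27 to 1.17 in DD CLPs, at 3.06 to 3.55 in WT and -1.01 to -0.07 in Bach2KO follicular B cells, at -3.87 to -2.15 with the control vector, at -2.57 to -0.92 with the Bach2 vector and at -4.10 to -2.49 in B220+ cells; where its probe lies relative to the deleted or inserted sequence is not given, and Bach1 overlapped between WT and DD CLPs. Follicular B cells had the markers of their label, all 5 mature B-cell markers being above background on all 6 arrays. They also had T-cell markers. The summed level of 4 of these, in units of the 75th percentile signal, was 8.35 to 16.3 in WT and 7.51 to 24.7 in Bach2KO cells. On the progenitor arrays it was 1.15 to 2.33. Whether other cells were present was not tested. In the B220+ cells the summed level of 7 B-lineage markers was 9.95 to 16.8 times the 75th percentile signal, against 8.18 to 13.3 in control-vector MPPs and 293 to 518 in WT follicular B cells, with overlapping ranges in the first pair of groups. The summed lymphoid progenitor markers of B220+ cells were at 83.2 to 96.8 against 21.6 to 27 in control-vector MPPs, and the summed granulocyte markers at 332 to 409 against 383 to 403. The lymphoid rise lay mainly in Dntt and Flt3, at log2 means of 5.58 against -1.55 and 4.52 against 2.51. Il7r was at 0.07 against -4.92, Kit at 3.77 against 3.71 and Ly6a at 1.02 against 1.96. Rag1 was dim, at -6.18 in B220+ cells and above background on no control-vector array. Of the 40 genes, 38 were well above background on all 21 arrays; Aurkb was on 17 and Ccne2 on 15, the missing arrays being follicular B cells.

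To show the elements by which these genes are commonly grouped, their promoters were taken from RefSeq (mouse assembly GRCm38.p6), where 33 of the 40 genes were matched, 15 replication and 18 mitotic; Aurkb, Ccna2, Kif20a, Tpx2, Mcm4, Ccne2 and Gins2 were not. Each window held 300 bases, 250 before the annotated transcription start and 50 after it, and was searched on both strands. The E2F words were TTTGGCGC, then TTTCCCGC, then TTTGCCGC, and also TTTCGCGC, the CHR words were TTTGAA and also TTCGAA, and the CCAAT box was CCAAT. An E2F word was in 37.5% of the 16 windows of replication genes, in 5.26% of the 19 windows of mitotic genes and in 2.26% of all 32851 windows. A CHR word was in 78.9% of mitotic windows, 18.8% of replication windows and 19.2% of all windows. The CCAAT box was in 89.5% of mitotic windows, 62.5% of replication windows and 37.4% of all windows. These are letter matches and not measured binding sites.

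The 6 stretches that follow are, for each class, from the 3 genes with the most matches of the class's own words (ties by array level, one chromosome left out). They are shown as examples of these words. Genes were picked by the words of their class and only those words are marked, so the stretches cannot show how the classes differ. Each runs from 200 bases before the start to 30 bases after it, 5′ to 3′ along the gene, and the last 30 bases lie in the first exon. In Mcm6, Mcm7 and Mcm3, subunits of the helicase that unwinds DNA at the fork, capitals mark E2F words. In Top2a (the enzyme that untangles sister DNA), Ube2c (the ubiquitin-conjugating enzyme of the anaphase-promoting complex) and Mki67 (the Ki-67 protein that coats mitotic chromosomes), capitals mark CHR words and CCAAT boxes.
Mcm6, chr1:128359676-128359905, minus strand: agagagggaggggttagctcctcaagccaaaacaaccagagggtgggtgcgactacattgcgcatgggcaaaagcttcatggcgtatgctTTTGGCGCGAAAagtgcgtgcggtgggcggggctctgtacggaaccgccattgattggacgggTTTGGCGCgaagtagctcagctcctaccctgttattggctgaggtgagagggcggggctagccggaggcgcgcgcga
Mcm7, chr5:138171854-138172083, minus strand: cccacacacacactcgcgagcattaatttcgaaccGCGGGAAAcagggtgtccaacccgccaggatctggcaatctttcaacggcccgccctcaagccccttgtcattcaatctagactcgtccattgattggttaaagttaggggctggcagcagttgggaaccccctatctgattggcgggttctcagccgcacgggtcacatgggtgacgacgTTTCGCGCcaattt
Mcm3, chr1:20820283-20820512, minus strand: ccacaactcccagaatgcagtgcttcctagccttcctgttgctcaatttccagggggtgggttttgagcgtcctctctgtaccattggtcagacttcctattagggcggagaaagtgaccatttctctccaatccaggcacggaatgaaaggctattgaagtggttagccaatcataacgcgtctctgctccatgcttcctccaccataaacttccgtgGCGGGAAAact
Top2a, chr11:99024160-99024389, minus strand: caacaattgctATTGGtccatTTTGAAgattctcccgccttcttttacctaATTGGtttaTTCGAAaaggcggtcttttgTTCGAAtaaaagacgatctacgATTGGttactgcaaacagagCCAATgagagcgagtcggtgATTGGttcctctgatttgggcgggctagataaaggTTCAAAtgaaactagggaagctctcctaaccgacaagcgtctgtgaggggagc
Ube2c, chr2:164769729-164769958, plus strand: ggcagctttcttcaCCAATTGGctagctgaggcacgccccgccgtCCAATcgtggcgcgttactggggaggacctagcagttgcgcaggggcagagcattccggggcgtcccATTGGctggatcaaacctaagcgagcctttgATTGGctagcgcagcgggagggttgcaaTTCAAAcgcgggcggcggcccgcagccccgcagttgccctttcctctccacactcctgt
Mki67, chr7:135716350-135716579, minus strand: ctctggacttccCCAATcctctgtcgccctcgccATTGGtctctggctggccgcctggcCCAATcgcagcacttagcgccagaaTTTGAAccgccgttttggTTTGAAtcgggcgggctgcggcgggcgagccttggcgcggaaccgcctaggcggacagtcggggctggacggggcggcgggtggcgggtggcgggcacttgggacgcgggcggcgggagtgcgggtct
Mcm6 held 3 E2F matches, a pair of which overlap, whereas Top2a held 4 CHR and 5 of its 6 CCAAT matches within the stretch shown.

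Across the 7 groups the classes had different ranges. The median distance between a gene's highest and lowest group mean was 2.17 for replication genes and 4.90 for mitotic genes. Mitotic genes were highest in cultured progenitors, 10 in control-vector MPPs, 6 in Bach2-vector MPPs and 6 in B220+ cells, and 20 of 22 were lowest in WT follicular B cells; the exceptions were Aurka and Cenpa, lowest in Bach2KO follicular B cells. Replication genes were lowest in Bach2KO follicular B cells in 11 of 18 cases and highest in Bach2-vector MPPs in 9. The groups come from separate experiments, so these orders describe the arrays.

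**Figure D1:**
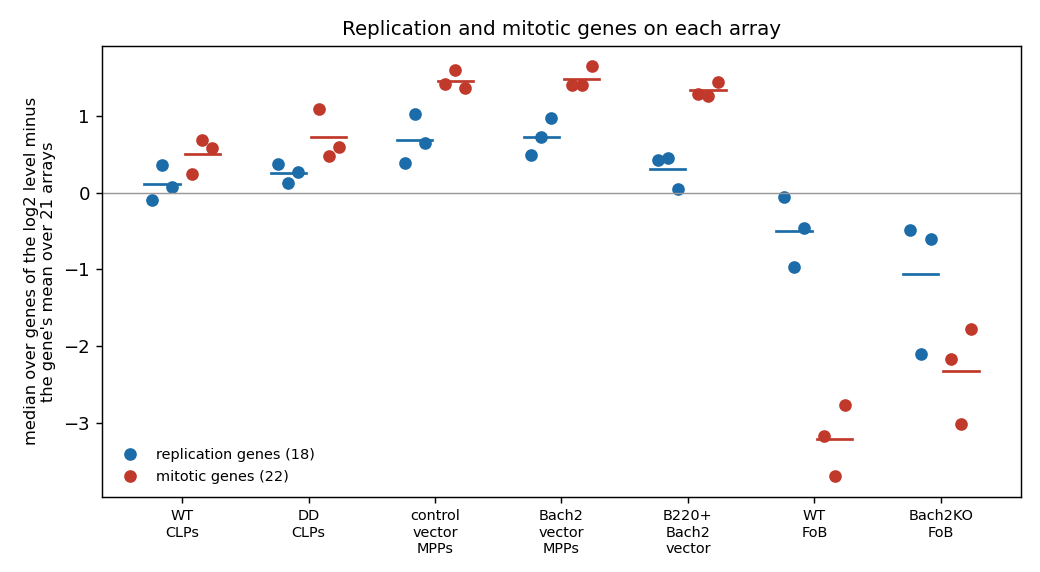
For each array, the median over 18 replication genes (blue) and 22 mitotic genes (red) of the log2 level minus the gene's own mean over 21 arrays; points are arrays, lines the mean of 3. The mitotic genes lie between -3.70 and -1.78 on the 6 follicular B-cell arrays and between 0.25 and 1.65 on the other arrays, whereas the replication genes of WT follicular B cells lie between -0.97 and -0.06.

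**Figure D2:**
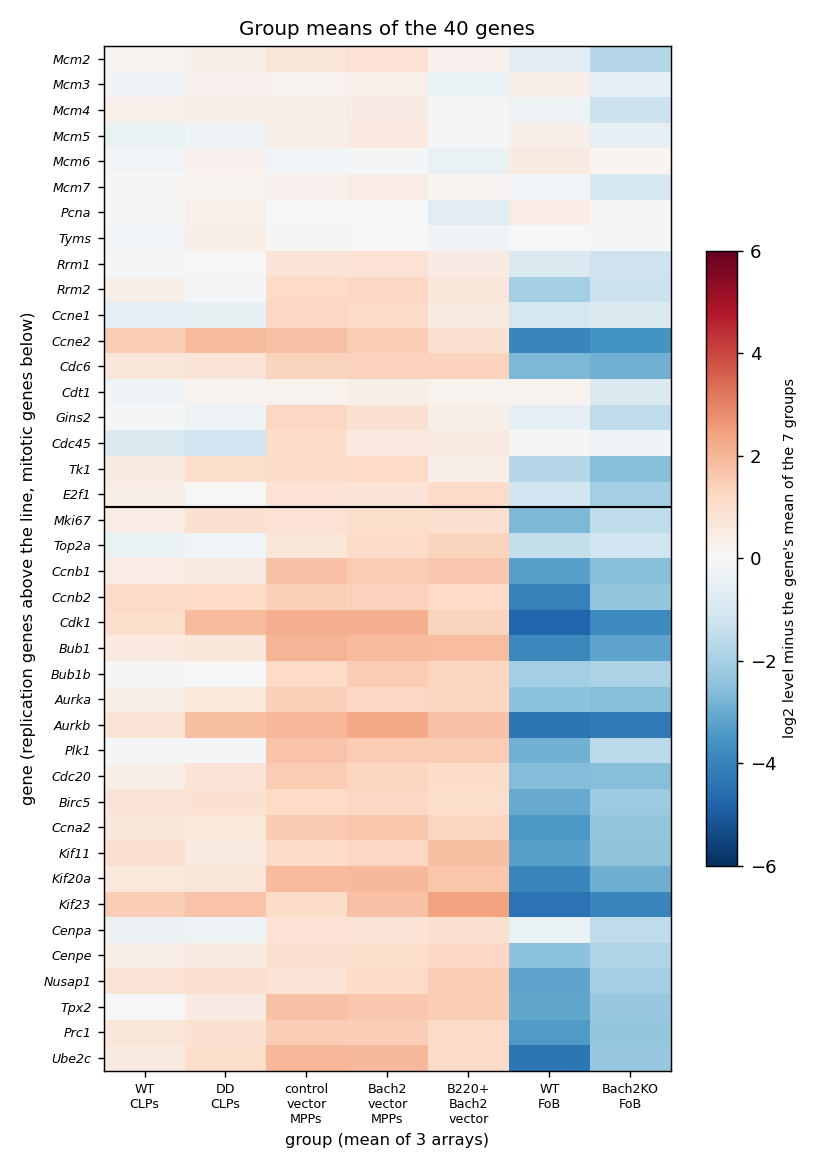
Group means (3 arrays each) of the 40 genes as log2 level minus the gene's mean of the 7 groups, on a colour scale from -6 (blue) to 6 (red), with replication genes above the line and mitotic genes below. The follicular B-cell columns are blue for nearly all mitotic genes and pale for the Mcm genes, Pcna and Tyms.

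The first comparison was Bach2KO against WT follicular B cells, both 24 h after anti-IgM, which asks what the loss of Bach2 does to stimulated B cells. Mitotic genes were higher in Bach2KO cells and replication genes lower. Ube2c rose 4.09-fold and Ccnb2, cyclin B2, a partner of the mitotic kinase Cdk1, rose 3.27-fold, with groups that did not overlap. Of the 21 mitotic genes tested, 19 were higher and 2 lower with a median log2 difference of 0.85, and of the 17 replication genes tested, 15 were lower and 2 higher with a median of -0.80; the median over all 13073 genes tested was -0.16. Over 26 alternative settings and subsets of arrays the median ran from -1.04 to -0.27 for replication genes and from 0.52 to 1.13 for mitotic genes. Ccne2 and Aurkb were too dim to be tested.

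The level of Ube2c was -1.06, -1.84 and -1.06 on the 3 WT arrays and 0.96, 0.05 and 1.12 on the Bach2KO arrays. Every Bach2KO array was above every WT array, and the log2 difference was 2.03 ± 0.39 (SE, n = 3 per group; adjusted p = 0.0298, limma with Benjamini-Hochberg adjustment). A further Ube2c probe gave 2.10. The level of Ccnb2 was -0.56, -0.77 and -0.08 in WT and 1.23, 0.83 and 1.65 in Bach2KO cells, again without overlap, with a difference of 1.71 ± 0.35 (adjusted p = 0.0367, limma). These were the 2 genes of 38 tested that passed an adjusted p of 0.05, both higher, where 2.21% of all genes passed higher and 0.513% lower; 0 replication genes passed, with 1 of 17 at an unadjusted p under 0.05.

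The labels number the replicates, and in these cells arrays of the same number deviated together (correlations of 0.86, 0.72 and 0.53 over all genes). The highest correlation between arrays of different number was 0.50, only just below that of pair 3. The arrays were treated as pairs by number. With the replicate number as a block, 26 of the 38 genes passed, 16 higher and 10 lower, where 9.58% of all genes passed higher and 13.2% lower. In that fit 15 of 21 mitotic genes rose and 1 fell, and 9 of 17 replication genes fell and 1 rose. The 26 included both Ube2c and Ccnb2. Counting pairs, 15 of 21 mitotic genes were higher in Bach2KO cells in all 3 pairs (20.1% of all genes), and 14 of 17 replication genes were lower in all 3 (41.6% of all genes).

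Among the mitotic regulators in the fit with the replicate block, the cyclins Ccna2 and Ccnb1 and the kinases Plk1, Cdk1 and Bub1 rose with Ccnb2. Plk1, the polo-like kinase that drives mitotic entry, was at 0.04, -0.13 and 0.73 in WT and 1.30, 0.84 and 2.18 in Bach2KO cells and rose by 1.23 ± 0.20 (SE; adjusted p = 0.000482). Ccna2, cyclin A2, rose by 1.07 ± 0.21 (adjusted p = 0.00249), and Ccnb1, cyclin B1, by 0.71 ± 0.21 (adjusted p = 0.0244), with its other 2 probes at 0.70 and 0.92. Cdk1 rose by 0.95 ± 0.21 (adjusted p = 0.00528), but its other probe above background on all 21 arrays gave 0.02, and its main probe spread from -4.73 to 0.08 over the WT arrays. Aurka, the centrosomal Aurora kinase, did not pass at -0.07 ± 0.21.

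Among the mitotic members, most of those that act on chromosomes, spindle and cytokinesis rose as well. This does not extend to the 33 other mitosis genes tested, of which 25 did not pass in the same fit. Mki67 was at 1.14, 1.00 and 2.09 in WT and 2.49, 1.94 and 3.30 in Bach2KO cells, a rise of 1.17 ± 0.20 (adjusted p = 0.000692), with 1.19 from its other probe; the groups overlapped but each Bach2KO array lay above the WT array of its number. Nusap1 and Prc1, which bundle spindle microtubules, both rose by 1.11 ± 0.20 (adjusted p = 0.000968 and 0.00117). The motors Kif20a, Kif11 and Cenpe rose by 0.99 ± 0.21, 0.84 ± 0.21 and 0.64 ± 0.21, and the spindle assembly factor Tpx2 by 0.87 ± 0.23. The other Tpx2 probe, above background on all 21 arrays, gave 0.35. Birc5 (survivin, of the chromosomal passenger complex) rose by 0.85 ± 0.20 and the checkpoint kinase Bub1 by 0.69 ± 0.21. Cenpa, the histone variant that marks centromeres, went the other way, at 3.03, 1.51 and 1.69 in WT and 1.60, 0.30 and 0.99 in Bach2KO cells, a fall of 1.12 on the log2 scale (SE 0.21, adjusted p = 0.00158). Bub1b, Cdc20, Kif23 and Top2a did not pass, at 0.11, 0.04, 0.49 and 0.23.

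The replication genes that fell in that fit were the licensing factor Cdt1, the helicase subunits Mcm2, Mcm3, Mcm4, Mcm5 and Mcm7, the helicase cofactor Gins2, thymidine kinase Tk1 and the transcription factor E2f1. Cdt1 was at 5.30, 4.97 and 5.12 in WT and 4.41, 3.31 and 4.45 in Bach2KO cells, a difference of -1.07 ± 0.23 (adjusted p = 0.00335) without overlap. Mcm2 was at 3.74, 3.16 and 3.60 in WT and 2.93, 1.36 and 3.07 in Bach2KO cells, a difference of -1.05 ± 0.24 (adjusted p = 0.0066), also without overlap. Without the block Cdt1, Mcm2 and Plk1 did not pass (adjusted p = 0.283, 0.478 and 0.259, limma). Bach2KO replicate 2 was the lowest array for both genes. Mcm3, Mcm4, Mcm5 and Mcm7 differed by -0.91, -0.94, -0.87 and -0.80, Gins2 by -0.95, Tk1 by -0.84 and E2f1 by -0.86. Rrm2, the regulated subunit of ribonucleotide reductase, rose by 0.73 ± 0.22 (adjusted p = 0.0298). Mcm6, Pcna (the sliding clamp of DNA polymerases), Rrm1, Tyms, Cdc45, Cdc6 and Ccne1 did not pass, with differences of -0.42, -0.56, -0.39, -0.14, -0.34, -0.18 and 0.20.

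**Figure D3:**
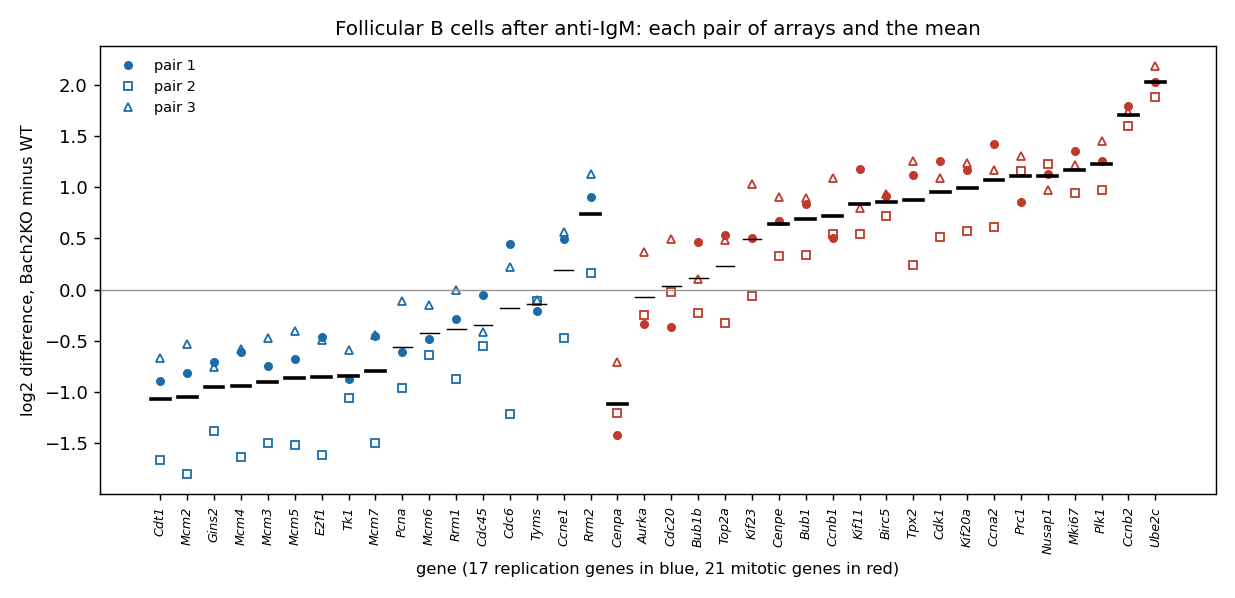
Log2 difference between Bach2KO and WT follicular B cells for 17 replication genes (blue) and 21 mitotic genes (red), by pair of arrays with the same replicate number (symbols) and as the mean (bar; thick where the gene passed with the replicate block). Mitotic bars run from -1.12 (Cenpa) to 2.03 (Ube2c), replication bars from -1.07 (Cdt1) to 0.73 (Rrm2), and the open squares of pair 2 lie lowest for most replication genes.

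Further genes of these pathways were counted in the fit with the replicate block. Of 30 other replication genes 17 fell and 0 rose, among them Dut, Rfc3, Pold1 and Orc1 at -1.17, -1.08, -1.07 and -1.16, which make the enzyme that removes dUTP, a clamp loader subunit, the catalytic subunit of polymerase delta and a subunit of the origin recognition complex. Of 33 other mitosis genes tested 6 rose and 2 fell, with Kif2c (a microtubule-depolymerising kinesin) at 1.57, Kif18b at 0.86 and Nek2 at 0.92, and Cdc25b, a phosphatase that activates Cdk1, at -0.89. The other 25 did not pass, and the median over the 33 genes was 0.15, beside 0.85 for the 21 mitotic members. Of 18 tested regulators of G1, 3 fell and 0 rose, beside the 13.2% of all genes that fell and 9.58% that rose in this fit. Ccnd2, cyclin D2, a G1 cyclin of B cells, moved most, from 6.55, 5.86 and 5.84 in WT to 4.95, 2.69 and 4.08 in Bach2KO cells, a difference of -2.18 ± 0.27. Rbl1 and Myc fell as well, at -0.86 and -0.83. Without the block 0 genes of these lists passed (3, 3 and 1 at an unadjusted p under 0.05), Ccnd2 coming nearest (adjusted p = 0.0877, limma).

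Several measures moved with the knockout. The summed level of 5 mature B-cell markers was 144 to 271 in WT and 67.7 to 127 in Bach2KO cells. That of 8 granulocyte markers was 1.55 to 16.4 against 10.8 to 49.1. For 6 erythroid markers it was 8.08 to 9.47 against 7.69 to 26.3, with Hba-a1 at means of -0.62 and 3.11. The summed level of 6 lymphoid progenitor markers was 6.47 to 7.89 against 44.0 to 53.7, a rise made almost wholly by Ly6a. Every other marker of that list had a mean below the 75th percentile signal in Bach2KO cells. By their means Flt3 and Kit were lower there than in WT cells, and Il7r, Dntt and Rag1 higher. Rag1 was above background on no array of either group, and Kit on no Bach2KO array. Mpo and Prtn3 of the granulocyte list were above background on no WT array and Ctsg on no Bach2KO array. By their means S100a9 was at 0.97 in WT and 4.20 in Bach2KO cells, and S100a8 at -0.68 and 2.37. Camp was at -1.90 and 0.95, Ltf at -3.43 and -0.41, and Elane at 1.555 and 1.28. Replicates of these genes spread widely, with an SD of 2.04 for S100a9 in WT cells. The part of these measures in the result was not tested, and fewer cells of a type and less RNA per cell cannot be told apart in bulk samples. Slide 1 held pair 1, with class medians of -0.48 for replication and 0.91 for mitotic genes, and slide 2 held pairs 2 and 3, with -0.83 and 0.80. Without the block, 0 of the 38 genes passed with median centring, normexp background correction or no filter on dim probes, and 0 passed without Bach2KO replicate 3, WT replicate 2 or WT replicate 3 and only Ube2c without WT replicate 1. With the block, leaving out pair 2, which holds the dimmest array, gave 22 genes, 17 higher and 5 lower; quantile normalization gave 14, 12 higher and 2 lower, and no filter on dim probes 5, all higher. With median centring and the block it was 20, 9 higher and 11 lower.

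The second comparison set WT follicular B cells after anti-IgM against WT CLPs, using the same WT B-cell arrays. Experiment, culture, slide and RNA amplification all differ between them and cannot be told apart from the cell type. Mitotic genes were far lower in the B cells, 20 of 22 passing with a median log2 difference of -3.89, while 5 of 18 replication genes passed, all lower, with a median of -0.50; the median over 17710 genes was -0.00 and 24.3% of them passed lower and 21.2% higher. The genes that did not pass were the Mcm genes, Pcna, Cdt1, Tyms, Rrm1, Ccne1, Gins2 and Cdc45 among replication genes and Top2a and Cenpa among mitotic genes. Of these, Mcm2 and Ccne1 were lower without overlap, and Mcm3, Mcm5, Mcm6 and Cdt1 higher without overlap. The share of all genes without overlap is not given, so this only describes the arrays.

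Kif23, the kinesin of the central spindle, was at 3.09, 3.19 and 3.22 in WT CLPs and at -2.84, -2.90 and -2.44 in the B cells, a difference of -5.89 ± 0.38 (SE, n = 3 per group; adjusted p = 3.95e-10, limma). Ccnb2 differed by -5.19 ± 0.32 and Ube2c by -4.87 ± 0.53. Cdk1 differed by -5.83 ± 0.99, with its other probe above background on all 21 arrays at -1.33. Kif20a, Bub1, Kif11, Ccna2, Prc1, Nusap1, Birc5 and Ccnb1 lay between -4.57 and -3.73, and Mki67, Tpx2, Cdc20, Aurka, Cenpe, Plk1 and Bub1b between -3.17 and -1.89. Aurkb differed by -5.20 ± 0.78, and on the WT B-cell arrays it was well above background on 1 of 3. Top2a and Cenpa did not pass, at -1.01 ± 0.47 and -0.04 ± 0.46. The groups did not overlap for the 20 genes that passed, in a comparison where 24.3% of all genes passed lower and 21.2% higher. Without the share of all genes that did not overlap, this is not read as particular to these genes.

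Among replication genes, those that fell were Cdc6, which loads the helicase at origins (-3.44 ± 0.51), Rrm2 (-2.37 ± 0.50), Tk1 (-2.25 ± 0.37), E2f1 (-1.54 ± 0.47; adjusted p = 0.0119, limma) and Ccne2, cyclin E2. Ccne2 was well above background on no B-cell array and was at least 9.57-fold lower there, a bound set by the dimmest signals well above background; its adjusted p was 4.32e-05. The other probe of Cdc6 gave -5.06. In contrast Mcm6 was at 6.33, 6.41 and 5.89 in WT CLPs and 7.52, 6.46 and 6.76 in the B cells, higher without overlap, at 0.70 ± 0.33, which did not pass (adjusted p = 0.0941, limma). Mcm3, Mcm5, Cdt1 and Pcna were also at or above the CLP level by their means, at 0.66, 0.76, 0.48 and 0.40, and Mcm2, Mcm4 and Mcm7 below it, at -0.80, -0.64 and -0.24.

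Of the 35 other mitosis genes 28 fell and 0 rose, with Anln, Melk, Cks2 and Ect2 at -4.94, -4.50, -4.18 and -4.22. Of the 30 other replication genes 9 fell and 2 rose (Pold1 and Rfc3), with Clspn, Gmnn, Pola1 and Dut at -3.27, -3.41, -2.18 and -1.77. Of the 20 G1 regulators 11 fell and 2 rose (Ccnd2 and Rb1), with E2f8 and E2f7 at -5.89 and -5.60. Mycn was not well above background on any WT B-cell array and was at least 571-fold lower there, and Ccnd1, at -7.47, was above it on 1 of 3. Over all alternatives and with any of the 6 arrays left out, 23 to 27 of the 40 genes passed.

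**Figure D4:**
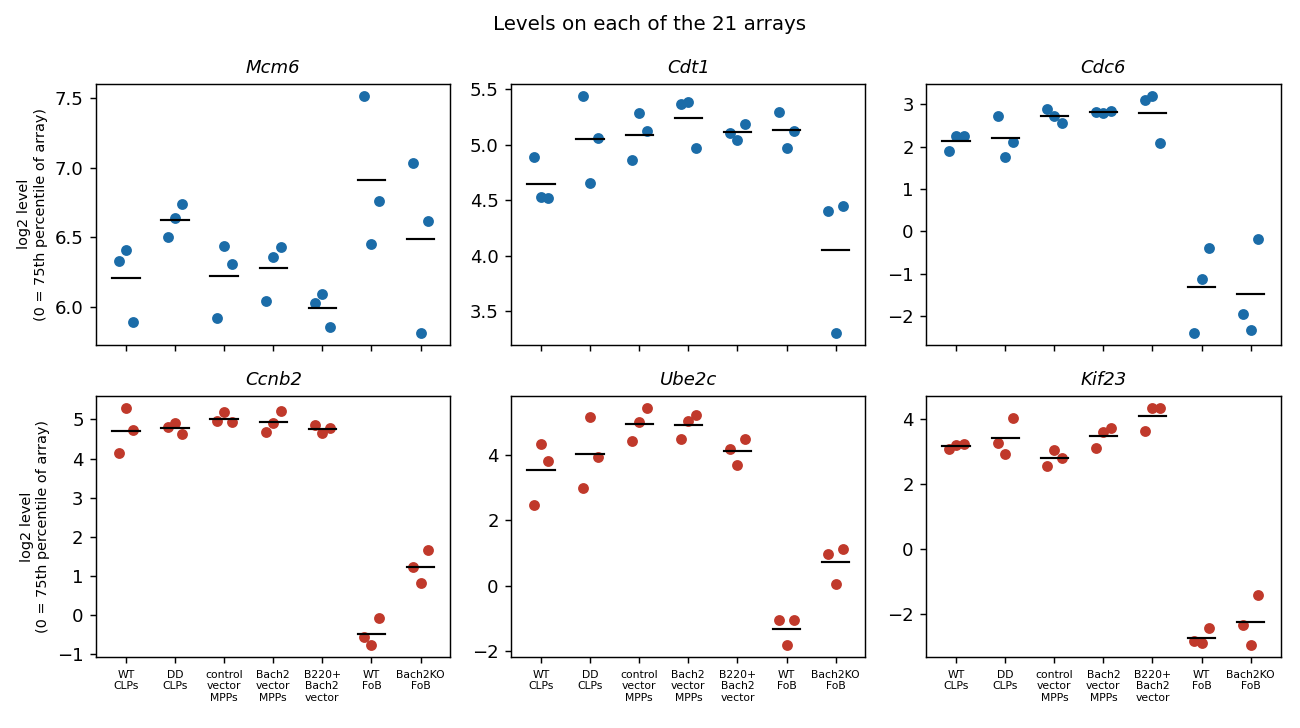
Log2 levels (0 is the array's 75th percentile signal) of Mcm6, Cdt1 and Cdc6 (replication, blue) and Ccnb2, Ube2c and Kif23 (mitotic, red) on each of the 21 arrays by group; bars are means of 3. Mcm6 and Cdt1 in WT follicular B cells lie at the level of the progenitors, at means of 6.91 and 5.13, whereas Ccnb2, Ube2c and Kif23 lie at -0.47, -1.32 and -2.72, and in Bach2KO cells at 1.24, 0.71 and -2.23.

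The third comparison set control-vector MPPs, cultured and infected, against uncultured WT CLPs, where again experiment, culture and slide cannot be told apart from the cell type. Of 22 mitotic genes 8 passed, all higher (Plk1, Tpx2, Cdc20, Kif20a, Bub1, Ccnb1, Bub1b and Aurka), and 2 of 18 replication genes, Ccne1 and Cdc45, where 13.1% of all genes passed higher and 10.2% lower. The medians were 1.08 for mitotic and 0.52 for replication genes, beside 0.20 for all genes. Plk1 was at 2.14, 3.34 and 3.34 in WT CLPs and 5.16, 4.88 and 4.32 in MPPs, 1.84 ± 0.39 higher (adjusted p = 0.00192, limma). Ccne1, cyclin E1, which starts S phase, was at 2.92, 3.57 and 3.26 in CLPs and 4.85, 5.19 and 5.02 in MPPs, 1.77 ± 0.36 higher (adjusted p = 0.00137, limma), with 2.02 from its other probe. Both genes separated the groups fully.

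Tpx2 was 1.74 ± 0.38, Bub1 1.45 ± 0.45, Bub1b 1.33 ± 0.42, Ccnb1 1.28 ± 0.41, Kif20a 1.25 ± 0.37, Cdc20 1.10 ± 0.31 and Aurka 0.99 ± 0.33 higher. Cdc45, a helicase cofactor, was 1.95 ± 0.63 higher (adjusted p = 0.0313, limma), with WT CLP replicate 1 at -3.58 and the others at -0.91 and -0.30. Rrm1 and Mcm5, next in order among replication genes, were 0.85 and 0.73 higher and did not pass. Of the other replication genes Orc1, Dnmt1 and Mcm10 rose, by 2.45, 1.56 and 1.13, with Chaf1a at 1.46 not passing, and of the 35 other mitosis genes 8 rose, Mybl2, Kif2c, Racgap1 and Tacc3 by 2.65, 1.99, 1.53 and 1.30; no gene of either list fell. Of the 20 G1 regulators 0 passed (2 at an unadjusted p under 0.05), with Myc, Tfdp1, Ccnd2 and E2f2 at 1.28, 1.40, 1.25 and -0.66. The count of 10 fell to 6 with median centring or quantile normalization and to 3 to 9 with an array left out, being 3 (Ccne1, Plk1 and Tpx2) without control-vector replicate 2, 5 without control-vector replicate 3 or WT CLP replicate 1 and 6 without control-vector replicate 1.

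The fourth comparison set B220+ Bach2-vector cells against WT CLPs, with the same limit on experiment, culture and slide. All 22 mitotic genes were higher by their means (median 0.86; -0.07 over all genes), and 5 passed, Plk1 by 1.65 ± 0.39, Top2a by 1.74 ± 0.47, Tpx2 by 1.47 ± 0.38, Bub1b by 1.42 ± 0.42 and Cenpe by 0.86 ± 0.28, where 6.06% of all genes passed higher and 8.63% lower. Top2a was at 0.78, 1.92 and 2.40 in WT CLPs and 3.05, 3.24 and 4.03 in B220+ cells, without overlap (adjusted p = 0.0151, limma). Replication genes had a median of 0.19 and 0 of 18 passed (2 at an unadjusted p under 0.05); Ccne1 came nearest, at 1.07 ± 0.36 (adjusted p = 0.0564, limma), and Cdc45, Pcna and E2f1 were at 1.42, -0.72 and 0.76. Without WT CLP replicate 1 0 of the 40 genes passed, and 3 without B220+ replicate 2 or 3.

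Of the other genes of these pathways, Kif4, Plk4, Kif2c and Ckap2 led 7 mitosis genes that rose, by 1.62, 1.79, 2.07 and 1.27, and Orc1 was the only replication gene to pass, at 1.60, with Chaf1a, Gins1 and Dnmt1 at 1.43, 0.91 and 0.98. Among G1 regulators Mycn fell by 3.64 on the log2 scale and Ccnd1, cyclin D1, rose by 2.33, while Ccnd2 and E2f6 were at 1.29 and -0.69.

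The fifth comparison set B220+ Bach2-vector cells against both MPP groups of the same experiment, which share arrays and 1 estimate of spread. Against control-vector MPPs 1 of 40 genes passed, where 4.65% of all genes passed higher and 7.45% lower. Kif23 was at 2.57, 3.05 and 2.79 in control-vector MPPs and 3.63, 4.35 and 4.35 in B220+ cells, a rise of 1.31 ± 0.30 (SE; adjusted p = 0.0223, limma) without overlap; it did not pass without B220+ replicate 2 or control-vector replicate 2 or 3. Of 18 replication genes 15 were lower, the median being -0.47 beside -0.29 for all genes, and 0 passed (2 at an unadjusted p under 0.05). Mitotic genes had a median of -0.16, which turned to 0.15 with median centring and 0.09 with quantile normalization.

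Ccne1, Gins2, Mcm5 and Mcm3 had the smallest p among replication genes, at -0.70, -0.91, -0.46 and -0.57, without passing. Their groups did not overlap, but the share of all genes without overlap is not given, and the median over all genes was -0.29. Nusap1, Ube2c and Cdk1 followed Kif23 among mitotic genes, at 0.69, -0.85 and -0.77. Ccnd1 rose by 3.24 ± 0.42 (adjusted p = 0.0017, limma), from 0.28, 1.13 and 1.56 to 4.26, 4.33 and 4.11, and Mycn fell by 3.24 on the log2 scale, from 2.87, 4.45 and 5.11 to 0.47, 0.97 and 1.28. Cenpf, a kinetochore protein, rose by 1.43 ± 0.28; no other gene of the mitosis list and 0 of the 30 replication genes passed (6 at an unadjusted p under 0.05), with Ndc80, Mybl2 and Nuf2 at 1.72, -1.15 and 0.54 and Orc1 and Mcm10 at -0.85 and -0.68. E2f6 and E2f4 were at -0.71 and -1.29. All B220+ arrays lay on slide 1 with 1 array of each MPP group, and within that slide the medians were -0.18 for replication genes, -0.04 for mitotic genes and -0.09 for all genes.

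Against Bach2-vector MPPs 0 of 40 genes passed (5 at an unadjusted p under 0.05), where 2.01% of all genes passed higher and 4.16% lower. Of 18 replication genes 17 were lower, the median being -0.49 beside -0.25 for all genes and -0.22 within slide 1. Mcm5 was at 5.27, 5.33 and 5.39 in Bach2-vector MPPs and 4.64, 4.50 and 4.82 in B220+ cells, without overlap, at -0.68 ± 0.22 (adjusted p = 0.110, limma), and Mcm3, Ccne1 and Mcm2 were at -0.67, -0.63 and -0.63. Mitotic genes had a median of -0.14, which turned to 0.18 with median centring, 0.09 with quantile normalization and 0.07 within slide 1, with Ube2c, Kif23, Cdk1 and Kif11 at -0.79, 0.63, -0.76 and 0.57. Mycn fell by 3.72 on the log2 scale (adjusted p = 0.00951, limma), and E2f4, Ccnd1 and Myc were at -1.51, 1.26 and -0.75; Cenpf, Ndc80, Foxm1 and Nuf2 were at 1.08, 1.51, 0.68 and 0.49, and Orc1, Mcm10, Uhrf1 and Gins4 at -0.79, -0.72, -0.73 and -0.74, without passing.

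The sixth comparison asked what the Bach2 vector does to MPPs after 2 days. Of the 40 genes 0 passed (1 at an unadjusted p under 0.05), while 1.07% of all genes passed higher and 0.724% lower. The medians were 0.07 for replication genes, 0.01 for mitotic genes and -0.02 for all genes, and the range was -0.53 (Cdc45) to 0.67 (Kif23). Kif23 was at 3.11, 3.60 and 3.71 with the Bach2 vector, above all 3 control arrays given above, but at 0.67 ± 0.30 did not pass (adjusted p = 0.571, limma). Nusap1, Top2a and Bub1b were at 0.40, 0.40 and 0.33, and Mcm5, Gins2 and Mcm7 at 0.22, -0.31 and 0.17. Ccnd1 was at 2.16, 3.40 and 3.34 with the Bach2 vector, above the control arrays, at 1.98 ± 0.42 (adjusted p = 0.0563, limma). With the replicate block it passed and was the only one of the 20 G1 regulators to do so. The pairing behind that block is uncertain, since pair 3 correlated at 0.30 and arrays of different number at up to 0.31. E2f6, Ccnd3 and Rbl2 were at -0.62, 0.61 and 0.41, and the other lists had 0 genes past the threshold and 0 at an unadjusted p under 0.05 (Rfc4, Uhrf1 and Prim2 at 0.38, 0.32 and 0.30; Cenpf, Ncaph, Mybl2 and Ncapd2 at 0.35, 0.24, -0.43 and 0.23).

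The last comparison within an experiment set DD against WT CLPs, asking what the loss of both factors does in uncultured progenitors. Of the 40 genes 0 passed (0 at an unadjusted p under 0.05), and all had an adjusted p of 0.999; of all genes 0.00607% passed higher and 0% lower. The medians were 0.12 for replication and 0.16 for mitotic genes, beside 0.04 for all genes, and 14 of 18 and 20 of 22 were higher by their means. Number and slide are the same in this experiment, and the medians were 0.58 and 0.73 in pair 1, -0.13 and -0.06 in pair 2 and 0.09 and 0.11 in pair 3. The class medians against each gene's mean over all arrays were -0.10 and 0.25 on the array of WT CLP replicate 1, the lowest of the WT CLPs. With quantile normalization the replication median turned to -0.03.

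Aurkb and Cdk1 had the smallest p among mitotic genes, at 1.00 ± 0.49 and 0.82 ± 0.42, followed by Tpx2 and Cdc20 at 0.50 and 0.38. The other probes of Cdk1 gave -0.34 and 1.52, the first above background on all 21 arrays and the second on 17. The other Tpx2 probe gave -0.17. Mcm3, Tk1, Mcm6 and Tyms led the replication genes, at 0.52 ± 0.33, 0.52 ± 0.33, 0.42 ± 0.33 and 0.53 ± 0.44. Mcm3 was at 5.48, 5.41 and 5.08 in WT and 5.91, 5.65 and 5.99 in DD CLPs, and 4 replication and 0 mitotic genes were higher without overlap, as were 4.93% of all genes. Gins2 was at 0.63 and 0.53 in replicate 1 of WT and DD CLPs and between 2.81 and 3.79 in the others, and so spread most among replication genes. Of the other lists 0 genes passed (2 of 30, 0 of 35 and 3 of 20 at an unadjusted p under 0.05), with Rpa2, Pole, Gins3 and Gins1 at 0.81, 1.00, 0.91 and 0.58, Kif4, Mybl2, Ncaph and Kif22 at 0.55, 0.58, 0.47 and 0.36, and Cdk6 and E2f4 at -2.15 and 1.65.

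Some of these genes passed the threshold in Bach2KO B cells and 0 in DD CLPs, and the difference between the effects was tested over all 21 arrays as (Bach2KO minus WT follicular B cells) minus (DD minus WT CLPs). Of the 40 genes 0 passed, with 4 replication and 2 mitotic genes at an unadjusted p under 0.05, where 0.491% of all genes passed higher and 0.096% lower, so a difference between the effects was not shown for any member. With the replicate number as a block within each experiment, a fit over the 12 CLP and B-cell arrays added after seeing the data, again 0 of 40 passed (10 replication and 4 mitotic genes at an unadjusted p under 0.05), where 0.797% of all genes passed higher and 0.18% lower. In that fit Ube2c had the smallest adjusted p of the 40, at 1.53 ± 0.30 (adjusted p = 0.0652, limma). In the first fit, over all 21 arrays and without the block, Ccnb2 was 1.64 ± 0.45 (adjusted p = 0.139, limma). Plk1, Ube2c and Kif11 were 1.22, 1.53 and 1.25 there. Cdt1 was -1.49 ± 0.45 in the first fit (adjusted p = 0.198, limma), and Mcm3, Tk1 and Mcm2 were -1.43, -1.36 and -1.24. The medians in the first fit were 0.62 for mitotic and -0.77 for replication genes, beside -0.05 for all genes. The genotypes differ too, since Bach1 was intact in the Bach2KO B cells.

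On single arrays the classes moved together. Over the 21 arrays the deviations of the class means from their group means had a correlation of 0.71, or 0.95 in CLPs, 0.41 in MPPs and 0.73 in follicular B cells; the classes share the array and its scaling. The median residual SD of the genes was 0.38 and 0.49 in CLPs, 0.33 and 0.30 in MPPs and 0.67 and 0.59 in follicular B cells for replication and mitotic genes, beside 0.50, 0.44 and 0.46 for all genes, so that the genes of both classes spread most between replicates in the follicular B cells.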

How the data were processed

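Gene expression was measured on 21 single-colour arrays of 62976 spots. Per the file headers the deposited intensity values are processed signals of Feature Extraction 10.7.3.1 (version 9.1 per the submitters' processing notes); the series' own table, also deposited, repeats these intensities. Spots with outlier marks were left out, spots of a probe averaged, and log2 values taken minus the array's 75th percentile. Of 55681 probes 26413 were given a gene name through RefSeq accessions of a later assembly. A gene entered a fit if its probe exceeded background on 3 or more arrays there. limma 3.58.1 was used (R 4.3.3, lmFit with eBayes), and p-values were adjusted by Benjamini-Hochberg over all genes of a comparison; differences across experiments were fitted over all 21 arrays. The normexp alternative used median spot and background signals, the means not being in the files. The fits were tested on simulated data.

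All 40 genes are named, in full where they passed or were among the 4 of a class with the smallest p in a comparison. Values of single genes of the marker and pathway lists are not all reported here. The members and lists were chosen with earlier results of these data known. Same-numbered arrays correlated at 0.43, 0.39 and 0.22 in CLPs, 0.65, 0.41 and 0.30 between vectors and 0.86, 0.72 and 0.53 in follicular B cells, all above the limit of 0.1. Figures were drawn with matplotlib 3.10.9.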

Additional observations from a re-analysis of the deposited data

How the results depend on the processing

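Of the 40 genes, the number passing changed by over 1.5 times in these settings. In Bach2KO against WT follicular B cells (2 genes) it was 0 with median centring, normexp or no filter on dim probes and 26 with the replicate block; the settings combined with the block were chosen after seeing the data and gave 20 with median centring, 25 with normexp, 14 with quantile normalization, 5 with no filter and 17, 22 and 21 without pair 1, 2 and 3. In control-vector MPPs against WT CLPs (10) it was 6 with median centring or quantile normalization, and in B220+ cells against WT CLPs (5) it was 8 with either, 9 with normexp and 10 with a variance trend. Against control-vector MPPs (1) it was 2 with normexp, against Bach2-vector MPPs (0) it was 1 with a variance trend, and in the difference of the loss effects (0) it was 1 with quantile normalization; the cause was not tested. With single arrays left out the counts were 0 to 2, 3 to 9, 0 to 6, 0 to 1, 0 to 0 and 0 to 0 in that order (arrays of the compared groups only across experiments; for the difference of the loss effects this was chosen after seeing the data), 24 to 27 for WT follicular B cells against WT CLPs, and 0 in DD CLPs and between vectors. The replicate block changed no other count. Median centring moved the median of all genes from -0.16 to -0.39 in Bach2KO B cells and from -0.29 to 0.02 in B220+ cells against control-vector MPPs. In B220+ cells the numbers did not pair the arrays: correlations were 0.124, -0.0357 and -0.0596 with control-vector and 0.0837, 0.125 and 0.104 with Bach2-vector MPPs. No named gene changed direction past the threshold. The low signal of the follicular B-cell arrays and 3 arrays a group limit the precision.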
